A study of Arabidopsis thaliana with 9 samples.

Results

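The comparison described here set the transcripts of d14, a strigolactone receptor mutant of Arabidopsis thaliana, beside those of wild type (WT) in nuclei of the hypocotyl, the organ between shoot and root that thickens through the cambium. It rests on 2 of the 9 libraries of the series, 1 droplet-based single-nucleus library per genotype. WT was accession Col-0 and the mutant was d14-1, an insertion line in Col-0. All plants were 19 days old. By the study's general growth conditions, seeds were sown on agar medium with sucrose and seedlings kept in days of 10 h light and nights of 14 h. Whether these plants stayed on that medium until collection is not stated there. The study's methods give about 200 hypocotyls for this experiment, from which nuclei were stained with Hoechst and sorted, and name no treatment. Barcodes with more than 1500 and fewer than 15000 counts were taken as nuclei, which gave 684 nuclei in WT and 822 in d14. Their counts were summed per library, and 8797 of 36957 listed genes had 100 or more counts over both libraries together. Of these, 386 lay at 2-fold or more between the libraries, and they are the genes described.

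Strigolactones are carotenoid-derived hormones known for the control of shoot branching and of secondary growth. The α/β-hydrolase D14 binds the hormone, joins the F-box protein MAX2, and so targets the repressors SMXL6, SMXL7 and SMXL8 for breakdown. A carotenoid isomerase (D27) and the cleavage dioxygenases MAX3 and MAX4 make carlactone, which MAX1, CLAMT and LBO modify further. Synthesis genes are known to be held down by feedback from the signal.

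The selected nuclei held 1696318 counts in WT and 2080343 in d14, with medians of 2029.5 and 2023 counts per nucleus. They took up 9.19% and 11.4% of all counts of their libraries, and the rest lay in barcodes outside the limits. Levels are given as CPM, the counts of a gene scaled to 1000000 summed counts of the selected nuclei, and a ratio is the CPM of d14 over that of WT. The values in brackets after a ratio are the ends of its 95% exact interval, which covers counting error only. With 1 library per genotype there was no replicate check, so no difference could be set against the spread between plants or preparations, and the genotype cannot be told apart from the preparation. In summed nuclei, fewer nuclei of a type and less RNA per nucleus also cannot be told apart. For that reason each ratio was also computed with the shares of 15 joint clusters held at those of WT, and this is called the held ratio.

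D14 (AT3G03990) had 26 counts in WT against 31 in d14, a ratio of 0.972 (0.559 to 1.70). The insertion line is thus not told from WT by this gene. The counts are 3′ tags with introns included, and the place of the insertion relative to them is not given in the sources used here. Among the 53 genes with 100 or more counts that lie within 100 protein-coding genes on either side of D14, 1 was called higher and 1 lower. The library labelled d14 is called d14 in what follows.

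Of the 8797 genes, 200 (2.27%) were called higher in d14, meaning a ratio of 2 or more, and 186 (2.11%) were called lower, meaning a ratio of 0.5 or less. The median log2 ratio over all 8797 genes was 0.01. A ratio of 4 or more, or of 0.25 or less, was reached by 28 higher and 16 lower genes. The interval lay wholly past 2-fold for 69 of the higher and 62 of the lower genes. At the boundary, AOC3 at 2.00 and AT5G05180 at 0.499 were just inside, while HWS, with 40 counts in WT and 98 in d14, and AT1G05805, with 225 and 138, were just outside. With cluster shares held, 196 of the 200 higher and all 186 lower genes stayed on the same side of 1, and 121 and 142 stayed past 2-fold. In barcodes with 100 or fewer counts, which hold RNA free of nuclei, 186 of the 198 higher genes and 180 of the 186 lower genes with at least 20 counts there lay on the same side of 1. The called genes were spread over the 5 chromosomes, with 1.78 to 2.59% of tested genes higher and 1.84 to 2.32% lower.

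**Figure D1:**
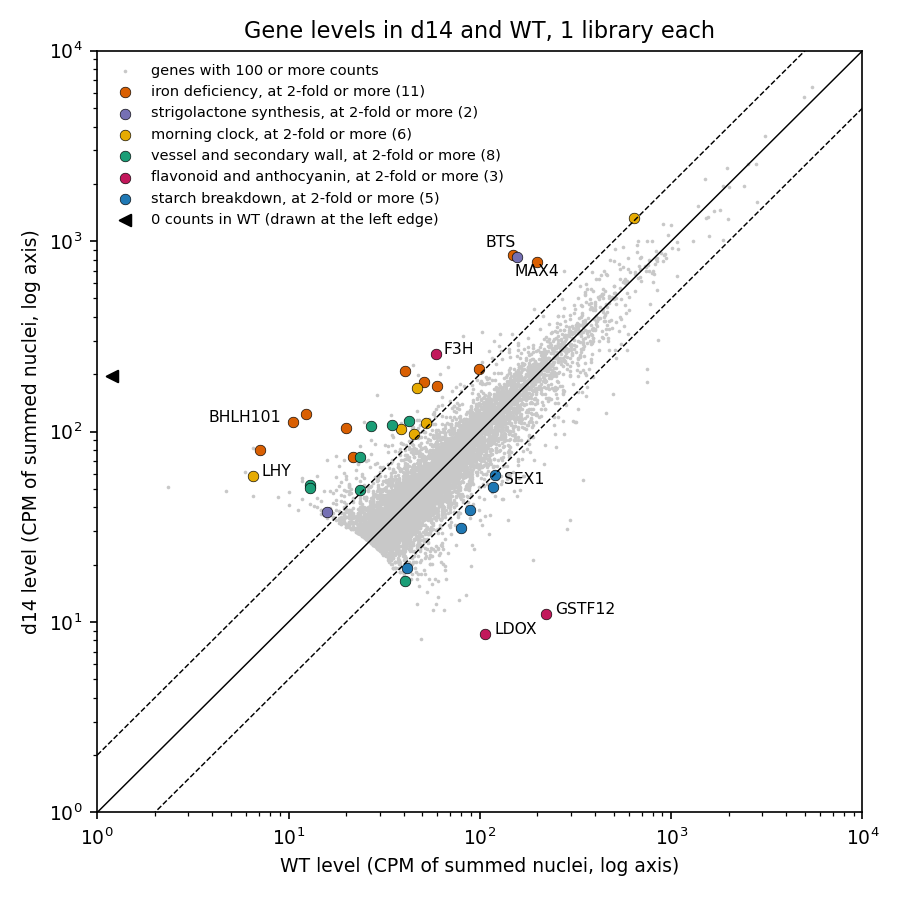
Level of each gene in d14 (vertical axis) against WT (horizontal axis), in CPM of summed nuclei on log axes, for genes with 100 or more counts over both libraries. The solid line marks equal levels and the dashed lines a 2-fold difference, coloured points are called members of 6 groups, and BTS, at 149 CPM in WT and 850.3 CPM in d14, lies near MAX4, at 156 and 822 CPM, above the upper dashed line. The triangle at the left edge is AT1G05540, with 0 counts in WT.

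Gene groups were described by how many of their members with 100 or more counts were called in each direction. For the iron deficiency response 11 of 16 members were called higher and none lower, with a median log2 ratio of 1.79 against 0.01 over all genes. In the morning clock group 6 of 11 were higher, in vessel and secondary wall formation 7 of 15 were higher and 1 lower, and in auxin transport and early response 7 of 29 were higher. On the other side, 5 of 12 genes of starch breakdown were lower, with a median of -0.91, and 2 of 4 metallothioneins were lower, with a median of -0.99. These shares stand beside 2.27% and 2.11% over all genes, and they describe this pair of libraries without a test. All lists were chosen with earlier results of these data known. The groups of starch breakdown, starch synthesis, metallothioneins, amino acid permeases and branched-chain amino acid breakdown were put together after values had been seen.

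**Figure D2:**
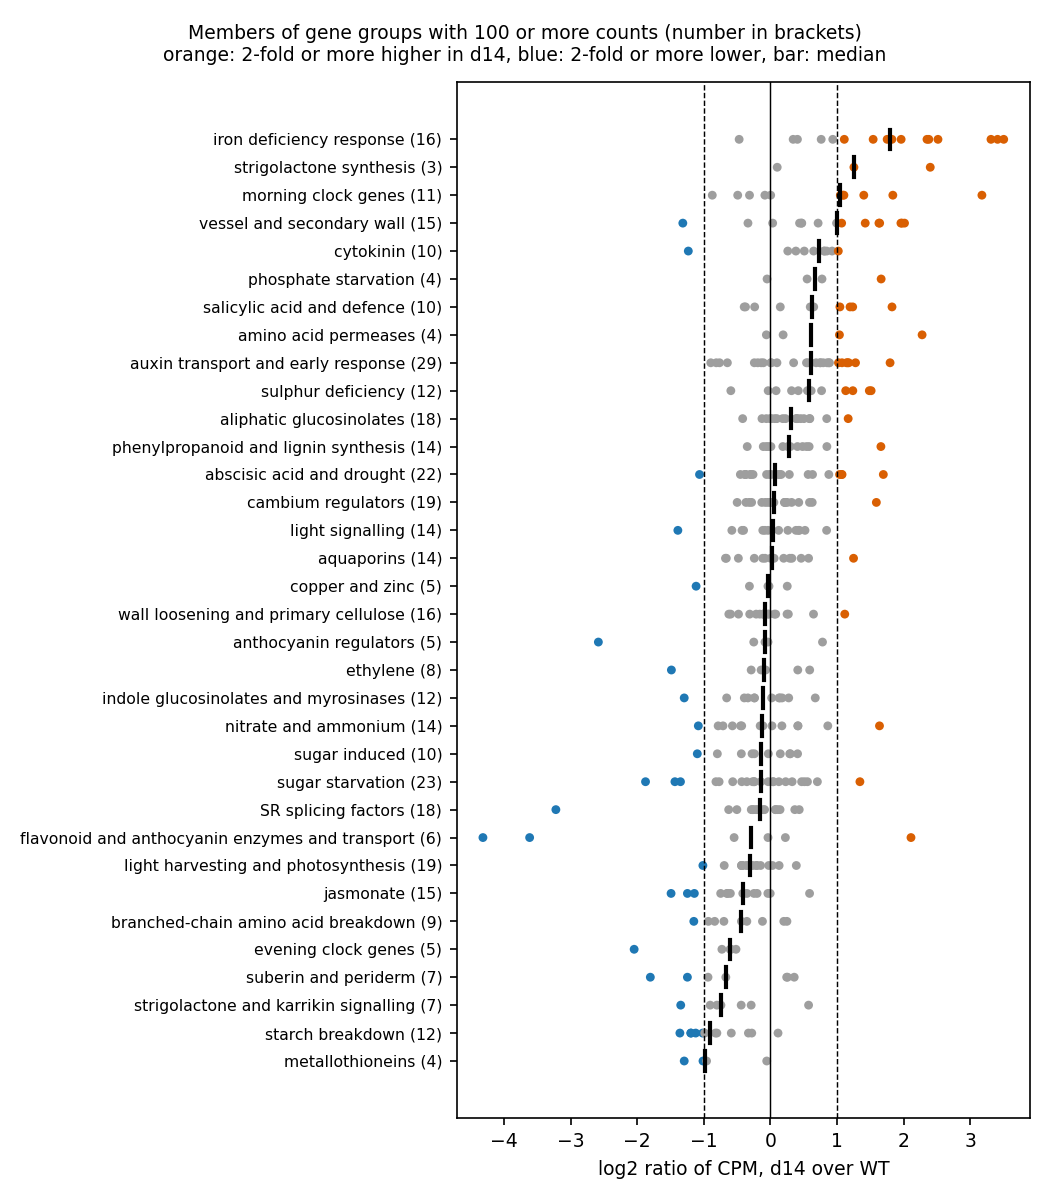
Log2 ratio of CPM, d14 over WT, for each member with 100 or more counts of the gene groups with 3 or more such members and at least 1 called, ordered by their median. Each point is 1 gene, the vertical bar is the median of the group, and dashed lines mark 2-fold. The iron deficiency group has the highest median at 1.79 and the metallothioneins the lowest at -0.99, and single points far to the left belong to the flavonoid, SR splicing factor and anthocyanin regulator groups.

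Strigolactone synthesis genes were higher in d14. MAX4 (AT4G32810), the carotenoid cleavage dioxygenase that completes carlactone, had 156 CPM in WT against 822 in d14, a ratio of 5.28 (4.64 to 6.04). CLAMT, which methylates carlactonoic acid, had 15.9 CPM in WT against 38 in d14 and a ratio of 2.39 (1.52 to 3.84). MAX1, the cytochrome P450 that acts after MAX4, had nearly equal levels, with a ratio of 1.07 (0.794 to 1.46). The other 3 synthesis genes were under 100 counts, and all had more counts in d14. MAX3 had 13 counts in WT against 86 in d14, D27 had 14 counts in WT against 67 in d14, and LBO, which acts on methyl carlactonoate, had 4 counts in WT against 67 in d14. All 6 synthesis genes together, those under 100 counts included, summed to 236 CPM in WT against 1016 in d14, a ratio of 4.30 (3.86 to 4.79).

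The difference in synthesis genes was uneven over clusters. MAX4 and CLAMT together had their highest ratios where WT had few counts, with 4 and 39 counts in cluster 1, a ratio of 13.1 (4.73 to 50.5), and 1 and 10 in cluster 3, a ratio of 11.8 (1.68 to 513). In cluster 9 they had 4 and 17, a ratio of 4.51 (1.47 to 18.4), and in cluster 13 they had 0 and 9. Of the clusters with more than 300 counts of both genes, the ratio was 7.81 (5.12 to 12.5) in cluster 10, which was led by AT2G37900 and PHO1. It was 4.29 (3.23 to 5.80) in cluster 8, led by AT1G66020, and 3.36 (2.61 to 4.41) in cluster 6, a vessel-like cluster in which 14 of 16 vessel markers were at least 2-fold above other nuclei. Clusters 4 and 5 lay at 2.82 and 2.99. In cluster 0 the interval included 1 (ratio 1.06, 0.576 to 2.00), and it did so in clusters 2, 7 and 12, with ratios between 0.449 and 0.682, and in clusters 11 and 14, with ratios of 1.51 and 6.86. A MAX4 count was found in 8.04% (6.11 to 10.3%) of WT and 24.3% (21.4 to 27.4%) of d14 nuclei thinned to the lowest total allowed, and in 9.50% and 26.3% of unthinned nuclei. Within cluster 6 the thinned shares were 40.9% and 70.0%, while within cluster 2 they were 3.53% and 6.67%. Vessel markers were also higher in d14, and the held ratio of MAX4, in which cluster shares are equal, was 3.40 in place of 5.28. For CLAMT the held ratio was 1.77.

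The SMXL repressor genes with 100 or more counts lay below equal levels. D14 and MAX2 had under 100 counts, and their intervals included 1. SMXL8 (AT2G40130), one of the repressors that D14 marks for breakdown, had 99.0 CPM in WT against 38.9 in d14, a ratio of 0.393 (0.298 to 0.515). Its homologues SMXL6 and SMXL7 were not called, with ratios of 0.534 (0.376 to 0.755) and 0.573 (0.473 to 0.693). MAX2, the F-box partner of D14, had 23 counts in WT against 45 in d14, under the limit of 100 counts, a ratio of 1.60 (0.945 to 2.76). A pair of genes under that limit had ratios far below 0.5. DLK2, the D14-like gene whose transcript is known to respond to the pathway, had 78 counts in WT against 20 in d14, a ratio of 0.209 (0.121 to 0.345). CXE15, a carboxylesterase known to hydrolyse strigolactones, had 80 counts in WT against 16 in d14, a ratio of 0.163 (0.0890 to 0.281). In the wider group of strigolactone and karrikin signalling, 1 of 7 members was called, and 6 of 7 lay below 1, with a median log2 ratio of -0.74. The exception was KAI2, the receptor for karrikins and a relative of D14, at 1.49 (1.19 to 1.88).

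**Figure D3:**
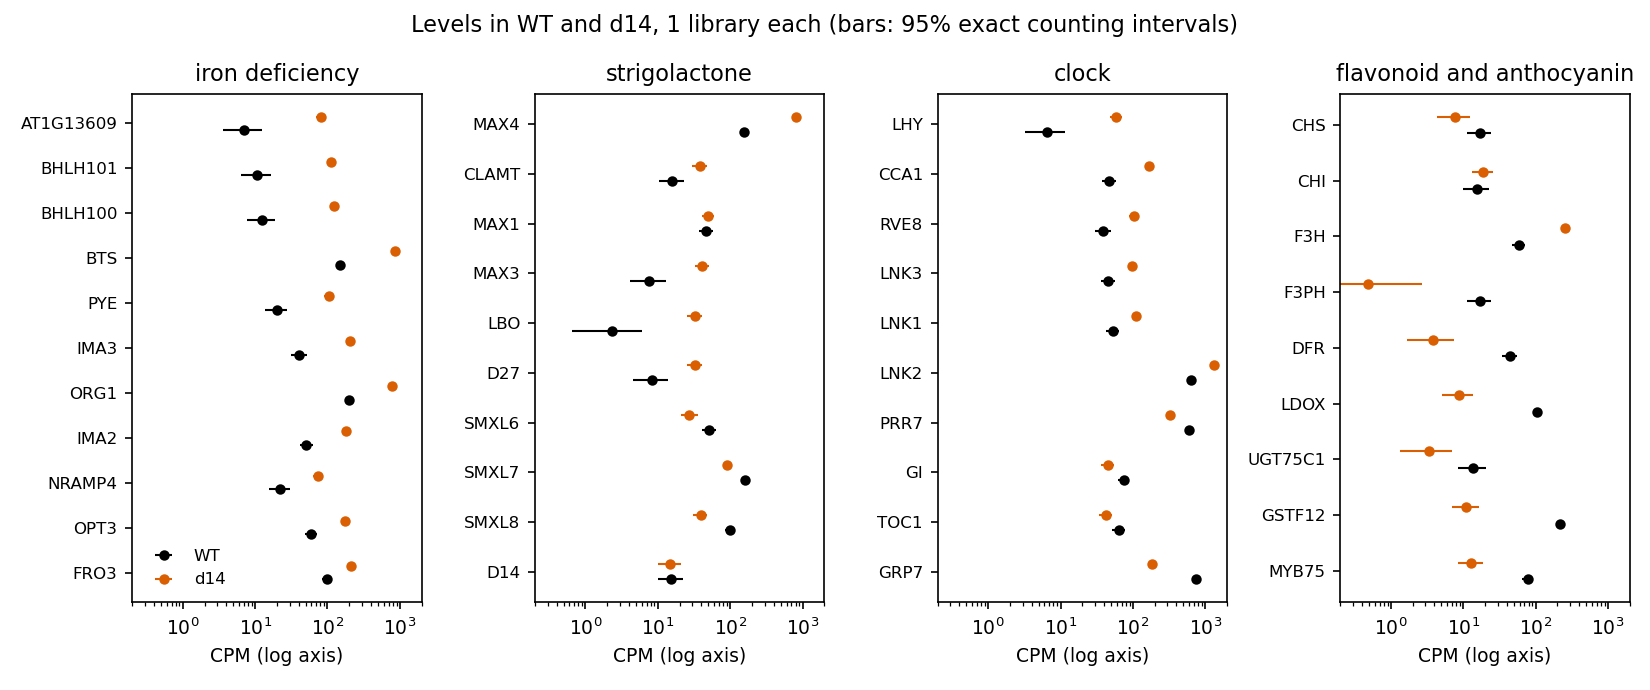
Level in CPM (horizontal log axis) of members of 4 groups in WT (black) and d14 (orange), with bars for 95% exact counting intervals. The points of the 2 libraries are separated for the iron deficiency genes shown and for MAX4, LHY, GRP7, F3H, LDOX and GSTF12, and they overlap for D14 and MAX1.

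The iron deficiency response was the group with the largest share of called members. Plants short of iron induce a set of bHLH transcription factors, small IMA peptides that act as long-distance or local signals, iron transporters and chelate reductases, together with BTS, a ubiquitin ligase that restrains the response. The transcription factors BHLH101 (AT5G04150) and BHLH100 (AT2G41240) had 10.6 CPM in WT against 113 in d14, and 12.4 CPM in WT against 123 in d14. Their ratios were 10.6 (6.59 to 18.3) and 9.94 (6.37 to 16.3). PYE, a further bHLH regulator, had 20.0 CPM in WT against 104 in d14, a ratio of 5.20 (3.61 to 7.71). BTS (AT3G18290) was the most abundant member in d14 and had 149 CPM in WT against 850.3 in d14, a ratio of 5.72 (5.01 to 6.56). Regulators and the restraining ligase were thus higher together.

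Signal peptides and transporters of the group were higher too. IMA3 had 40.7 CPM in WT against 208 in d14, a ratio of 5.11 (3.95 to 6.68), and IMA2 had a ratio of 3.54 (2.80 to 4.53). OPT3, a transporter that loads iron into phloem companion cells, had 59.5 CPM in WT against 174 in d14, a ratio of 2.91 (2.33 to 3.67). NRAMP4, which releases iron from the vacuole, had a ratio of 3.37 (2.34 to 4.97), and the mitochondrial ferric reductase FRO3 one of 2.16 (1.80 to 2.59). ORG1, a kinase-like protein of plastids that is induced with the same set, had 199 CPM in WT against 775 in d14, a ratio of 3.90 (3.47 to 4.40). AT1G13609, annotated as a defensin-like protein, had 12 counts in WT against 167 in d14, a ratio of 11.3 (6.33 to 22.4). Summed over all 31 listed members, those under 100 counts included, the group had 991 CPM in WT against 3350.4 in d14, a ratio of 3.38 (3.21 to 3.57).

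Of the 5 members that were not called, 4 lay above 1 and ABCG37, an exporter of coumarins, lay below, at 0.722 (0.540 to 0.964). BHLH38 had a ratio of 1.91 (1.34 to 2.77) and the nicotianamine synthase NAS1 one of 1.27 (1.04 to 1.54). The root uptake genes were scarcely counted in either library. IRT1, the iron importer of the root surface, had 0 counts in WT against 12 in d14, FRO2, its partner reductase, had 0 counts in WT against 8 in d14, and FIT, the regulator of both, had 4 counts in WT against 6 in d14. On the storage side, the ferritin genes FER3, FER4 and FER1 had 27 and 7, 29 and 18, and 36 and 38 counts in WT and d14. Outside the group, further genes were named after their values were seen. ZIF1, a vacuolar transporter of nicotianamine, had a ratio of 5.38 (3.97 to 7.42). CGLD27, a plastid protein, had one of 3.92 (3.26 to 4.74), and the vacuolar cation exchanger CAX1 one of 3.24 (2.74 to 3.84).

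The interval of the called iron genes lay above 1 in 9 of 15 clusters and included 1 in the other 6, and their counts were highest in cluster 0. The 11 called members together had 571 counts in WT and 4153 in d14 in cluster 0, a ratio of 4.33 (3.96 to 4.73). That cluster was led by genes that include CAX1, CGLD27 and BHLH100, so iron genes took part in defining it. In clusters led by other genes the ratio was 5.70 (4.21 to 7.83) in cluster 4, which was phloem parenchyma-like, 5.10 (3.91 to 6.73) in cluster 7 and 3.39 (2.82 to 4.09) in cluster 2. In the vessel-like cluster 6 it was 1.44 with an interval that included 1 (0.829 to 2.64), and in cluster 11, led by PR2, it was 1.08 (0.631 to 1.89). The intervals of clusters 5, 9, 12 and 13 also included 1, with ratios of 1.45 to 1.91. BTS was detected in 12.1% (9.78 to 14.8%) of thinned WT nuclei and 33.0% (29.8 to 36.3%) of thinned d14 nuclei, or 17.3% and 37.7% unthinned. In cluster 6 its thinned shares were 4.55% and 11.3%, and in cluster 0 they were 28.8% and 81.8%. With cluster shares held, 10 of the 16 members stayed 2-fold higher and FRO3 did not, at 1.95.

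Promoters of 3 called iron genes are shown because bHLH factors of this response are known to bind G-boxes. They were picked for holding one in the 250 bases before the gene start. The other 8 of the 11 called iron genes held none there, and over the whole list 4 of 31 genes (12.9%) held one. Capitals mark the G-box CACGTG, a motif that is the same on both strands. Positions are on the TAIR10.1 assembly of RefSeq and the letters run 5′ to 3′ along the strand of the gene. BTS is on the plus strand, where the bases shown span chr3:6273839-6273958, and it holds 3 G-boxes in 250 bases, 2 of them in the stretch shown. BHLH100 is on the minus strand at chr2:17199493-17199592, and OPT3 on the minus strand at chr4:9250369-9250468.
BTS: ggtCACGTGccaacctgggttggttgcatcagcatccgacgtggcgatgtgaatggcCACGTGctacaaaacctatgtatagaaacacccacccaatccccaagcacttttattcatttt
BHLH100: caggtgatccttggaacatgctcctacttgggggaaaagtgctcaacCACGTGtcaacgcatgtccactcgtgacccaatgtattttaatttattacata
OPT3: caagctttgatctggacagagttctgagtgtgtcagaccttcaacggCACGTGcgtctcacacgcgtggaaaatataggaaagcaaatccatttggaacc
A G-box was present in 12.5% of the promoters of the 200 higher genes and in 6.99% of those of the 186 lower genes. Over the 8797 genes the share was 7.80%, and over all 37897 promoters of the annotation it was 5.39%.

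Of the clock genes, those called higher were morning genes and the one called lower was an evening gene. In the plant clock, LHY and CCA1 are transcription factors with a morning peak that repress genes of the evening through the evening element, and the evening genes in turn repress them. LHY (AT1G01060) had 6.48 CPM in WT against 58.6 in d14, a ratio of 9.04 (4.88 to 18.6), and CCA1 had 47.2 CPM in WT against 169 in d14, a ratio of 3.58 (2.80 to 4.62). RVE8, a related activator, had a ratio of 2.64 (2.00 to 3.54). The coactivators LNK1, LNK2 and LNK3 had ratios of 2.13 (1.66 to 2.75), 2.07 (1.93 to 2.22) and 2.15 (1.65 to 2.83). LNK2 had 637 CPM in WT against 1319 in d14, and its ratio was above 1 in all 15 clusters. Of the remaining morning genes PRR7, a repressor that follows LHY and CCA1, lay lowest, at 0.546 (0.495 to 0.602).

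Evening genes lay on the other side of 1 from the called morning genes. GRP7 (AT2G21660), an RNA-binding protein whose transcript peaks in the evening, had 749 CPM in WT against 181 in d14, a ratio of 0.242 (0.215 to 0.272). It was below 1 in all 12 clusters with 20 or more of its counts. Its paralogue GRP8 had a ratio of 0.658 (0.608 to 0.711), GI one of 0.604 (0.457 to 0.794), TOC1 one of 0.664 (0.496 to 0.889) and ELF3 one of 0.699 (0.510 to 0.956). All 5 evening members with 100 or more counts were below 1, and GRP7 was the only one called. Under 100 counts, the repressors PRR5 and PRR3 had 32 and 2, and 16 and 1 counts in WT and d14. Cluster shares moved these values little, and held ratios were 9.01 for LHY and 0.261 for GRP7. In the 4-week droplet library of whole hypocotyls, a reporter line of another age, LHY had 76.4 CPM and CCA1 273 CPM, and no comparison is drawn. The hour at which each library was collected is not given in the sources used here, and its part in these values was not tested.

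The evening element, AAAATATCT searched on both strands in 250 bases before the gene start, was more frequent before lower genes. It was present in 12.9% of the promoters of lower genes (24 of 186), in 2.00% of those of higher genes (4 of 200), in 2.57% of those of all 8797 genes and in 2.11% of the 37897 promoters of the annotation. By class of ratio the share was 7.09% among genes between 0.5 and 0.667, 2.37% between 0.667 and 0.8, 2.15% between 0.8 and 1.25, and 1.42 to 1.48% between 1.25 and 2. The shorter form AATATCT, which lies within the evening element, was present in 24.2% of lower, 10.0% of higher and 10.3% of all tested promoters. These are shares of letters in a fixed window and carry no statement on binding. Lower genes with the element included SMXL8, PWD, JAZ10 and MT2A, which are described under their own groups.

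**Figure D4:**
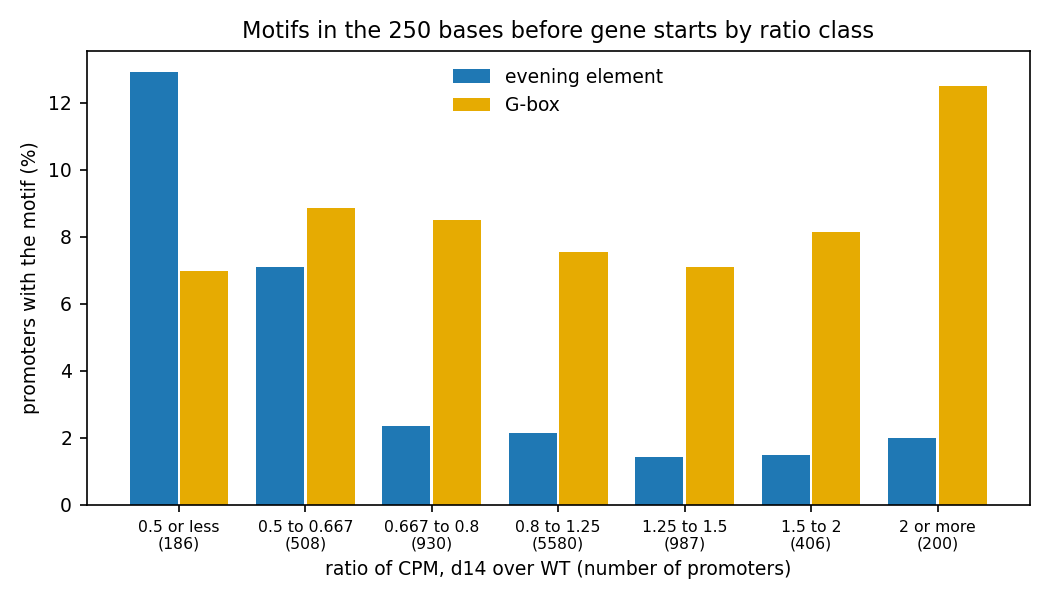
Percent of promoters (vertical axis, 250 bases before the start) that hold the evening element or the G-box, by class of the CPM ratio of d14 over WT (horizontal axis). The evening element is at 12.9% in the class of 0.5 or less and at 1.42 to 2.37% in the classes above 0.667, while the G-box is highest, at 12.5%, in the class of 2 or more.

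The stretches that hold the element are shown for 5 lower genes, with LHY as a higher gene. The 5 were picked from the 24 of 186 lower genes that hold the element, so that they share it follows from the choice. Capitals mark the evening element or its reverse complement AGATATTTT, and in LHY they mark a G-box. GRP7 is on the minus strand at chr2:9266558-9266657 and holds 3 elements within the bases shown. CCL, annotated as a CCR-like protein, is on the plus strand at chr3:9827543-9827642 and MEE14 on the minus strand at chr2:6922174-6922273. AT2G30600, a BTB/POZ domain protein, is on the plus strand at chr2:13036714-13036813, PWD on the plus strand at chr5:9261379-9261478 and LHY on the minus strand at chr1:37899-37998.
GRP7: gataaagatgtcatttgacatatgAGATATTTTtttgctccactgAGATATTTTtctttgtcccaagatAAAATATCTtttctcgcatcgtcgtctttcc
CCL: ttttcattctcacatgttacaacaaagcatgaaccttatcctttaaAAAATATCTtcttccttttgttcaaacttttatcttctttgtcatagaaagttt
MEE14: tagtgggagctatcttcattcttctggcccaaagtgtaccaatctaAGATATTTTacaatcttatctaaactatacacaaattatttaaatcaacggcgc
AT2G30600: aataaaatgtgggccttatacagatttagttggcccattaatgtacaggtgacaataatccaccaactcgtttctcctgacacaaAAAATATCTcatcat
PWD: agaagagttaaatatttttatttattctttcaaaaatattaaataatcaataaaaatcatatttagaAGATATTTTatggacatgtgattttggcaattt
LHY: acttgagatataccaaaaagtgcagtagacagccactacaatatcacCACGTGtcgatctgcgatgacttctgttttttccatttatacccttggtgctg
Beside these sequences, AT2G30600 had 848 CPM in WT against 303 in d14, a ratio of 0.357 (0.325 to 0.392), CCL a ratio of 0.354 (0.283 to 0.441) and MEE14 one of 0.305 (0.241 to 0.384).

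Of 12 starch breakdown genes 5 were lower, and of 11 starch synthesis genes none was called. Leaf starch is broken down at night by glucan phosphorylation, dephosphorylation and hydrolysis. The dikinases SEX1 and PWD, which add phosphate to the granule, had ratios of 0.494 (0.392 to 0.621) and 0.459 (0.304 to 0.686). SEX4, the phosphatase that removes it, had 117 CPM in WT against 51.0 in d14, a ratio of 0.437 (0.341 to 0.555). The plastid amylase AMY3 had a ratio of 0.437 (0.330 to 0.577) and PHS2, a cytosolic glucan phosphorylase, one of 0.390 (0.285 to 0.527). Of the 12 members with 100 or more counts 11 lay below 1, and only the amylase BAM1 lay above, at 1.08 (0.911 to 1.29). Starch synthesis had a median log2 ratio of 0.09 and the lowest value at SS4, a starch synthase, with 0.574 (0.453 to 0.727). In the 5 clusters with 100 or more counts of the 5 called genes together, clusters 0 to 4, the ratio was 0.329 to 0.493, while in the vessel-like cluster 6 the ratio was 0.848 (0.439 to 1.74).

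Genes known to respond to sugar supply were split. The dormancy-associated genes DRM2 and DRM1, which rise in sugar-starved tissue, had ratios of 0.273 (0.236 to 0.314) and 0.392 (0.330 to 0.465), and DIN10, a raffinose synthase-like gene of darkness, had 0.370 (0.316 to 0.432). BZIP11, a transcription factor of the same response whose translation sucrose represses, was higher at 2.54 (1.72 to 3.83). The other 19 of 23 sugar starvation genes were not called, among them the asparagine synthetase ASN1 at 0.675 (0.536 to 0.850). GDH2, a glutamate dehydrogenase, was named for its abundance after its values were seen, with 745 CPM in WT against 213 in d14, a ratio of 0.286 (0.256 to 0.319). BCAT-2, the transaminase of branched-chain amino acids, was lower at 0.451 (0.358 to 0.565), alone of 9 breakdown genes.

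Of 6 flavonoid and anthocyanin genes with 100 or more counts 1 was higher, 2 were lower and 3 were not called. F3H (AT3G51240), flavanone 3-hydroxylase, had 59.0 CPM in WT against 255 in d14, a ratio of 4.32 (3.48 to 5.41). LDOX (AT4G22880), which makes anthocyanidins, had 106 CPM in WT against 8.65 in d14, a ratio of 0.0815 (0.0472 to 0.133), and GSTF12 (AT5G17220), a glutathione transferase needed to carry anthocyanins to the vacuole, had 220.5 CPM in WT against 11.1 in d14, the lowest ratio of all genes at 0.0501 (0.0314 to 0.0764). Some other genes of the pathway under 100 counts also had fewer counts in d14. DFR, dihydroflavonol reductase, had 75 and 8 counts in WT and d14, the flavonoid 3′-hydroxylase F3PH had 29 and 1, and the anthocyanin glucosyltransferase UGT75C1 had 23 and 7. FLS1, which draws F3H product into flavonols, had 1 and 18 counts, a ratio of 14.7 (2.32 to 612). The first enzymes of the pathway did not follow F3H. CHS had 29 and 16 counts, a ratio of 0.450 (0.228 to 0.856), and CHI had 26 and 39, a ratio of 1.22 (0.726 to 2.09).

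MYB75, the activator of the late anthocyanin genes, was lower as well, with 77.8 CPM in WT against 13.0 in d14, a ratio of 0.167 (0.106 to 0.254). The other 4 regulators with 100 or more counts were not called, and lay between 0.841 for LBD39 and 1.72 for LBD37. The counts of GSTF12 and LDOX in WT were concentrated in cluster 1, where both together had 370 counts in WT and 3 in d14. GSTF12 was among the leading genes of that cluster. In cluster 4 they had 66 and 14 counts, a ratio of 0.249 (0.129 to 0.448), and in cluster 0 they had 52 and 3, a ratio of 0.0343 (0.00686 to 0.106). In the vessel-like cluster 6 they had 2 and 14, a ratio of 2.14 (0.492 to 19.4). GSTF12 was detected in 8.04% (6.11 to 10.3%) of thinned WT nuclei and 1.09% (0.502 to 2.07%) of thinned d14 nuclei, 9.21% and 1.58% unthinned. In clusters 9 and 11 it was found in no thinned nucleus of either library.

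Among SR splicing factors, which choose splice sites, only SR30 (AT1G09140) was called of 18, with 287 CPM in WT against 30.8 in d14, a ratio of 0.107 (0.0812 to 0.139). The other 17 lay between 0.648 for RSZ21 and 1.35 for SCL33. A count of SR30 was found in 31.1% (27.7 to 34.8%) of thinned WT nuclei and 4.62% (3.29 to 6.29%) of thinned d14 nuclei, and in 42.5% and 7.30% unthinned. In the companion cell-like cluster 14 no thinned nucleus of either library held one. The difference did not depend on cluster shares, with a held ratio of 0.111, and it was present in free RNA, with a ratio of 0.0432. BBX22, a B-box factor of light signalling, was lower at 0.382 (0.296 to 0.489), alone of 14 members of its group. LHCB1.3, an antenna protein of photosystem II, was lower at 0.495 (0.436 to 0.561), alone of 19 photosynthesis genes, of which 16 lay below 1. It has close copies, so its reads may be split among them. Mesophyll markers summed to a ratio of 0.755 (0.712 to 0.800), with none of 9 at 0 in either library, and their part in that result was not tested.

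Vessel and secondary wall genes were higher in summed nuclei. VND1 and VND3, NAC factors that can switch cells to the vessel fate, had 27.1 CPM in WT against 107 in d14, and 13.0 CPM in WT against 52.4 in d14. Their ratios were 3.94 (2.85 to 5.53) and 4.04 (2.54 to 6.71), and that of VND6, a further member, was 2.10 (1.44 to 3.11). CESA4 and CESA8, cellulose synthases of the secondary wall, had ratios of 3.10 (2.31 to 4.20) and 3.12 (2.19 to 4.54). TBL29, which acetylates xylan, had 3.89 (2.44 to 6.47), and the bHLH factor T5L1 of the vascular thermospermine module had 2.68 (2.05 to 3.54). LAC4, a laccase of lignin polymerisation, had 3.16 (2.00 to 5.18). BFN1, a nuclease of dying and senescing cells, was lower, with 40.7 CPM in WT against 16.3 in d14, a ratio of 0.402 (0.258 to 0.614).

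Vessel markers were higher beside these genes. The 16 vessel markers, several of which are in the group, summed to 499 counts in WT and 1480 in d14, a ratio of 2.42 (2.18 to 2.68), with 5 of 7 testable markers higher and none at 0 in either library. With cluster shares held, 0 of the 15 members stayed 2-fold higher, the median log2 ratio was 0.16 in place of 0.99, and VND6 turned to 0.886. Within the vessel-like cluster 6, where most counts of the 7 called members lay, they had 255 counts in WT and 1001 in d14, a ratio of 1.2 (1.05 to 1.38). VND1, VND6, CESA4 and CESA8 were among the leading genes of that cluster, so the held values are not independent of them, and more vessel nuclei and more RNA per nucleus were not told apart. LAC4 had a held ratio of 1.51.

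**Figure D5:**
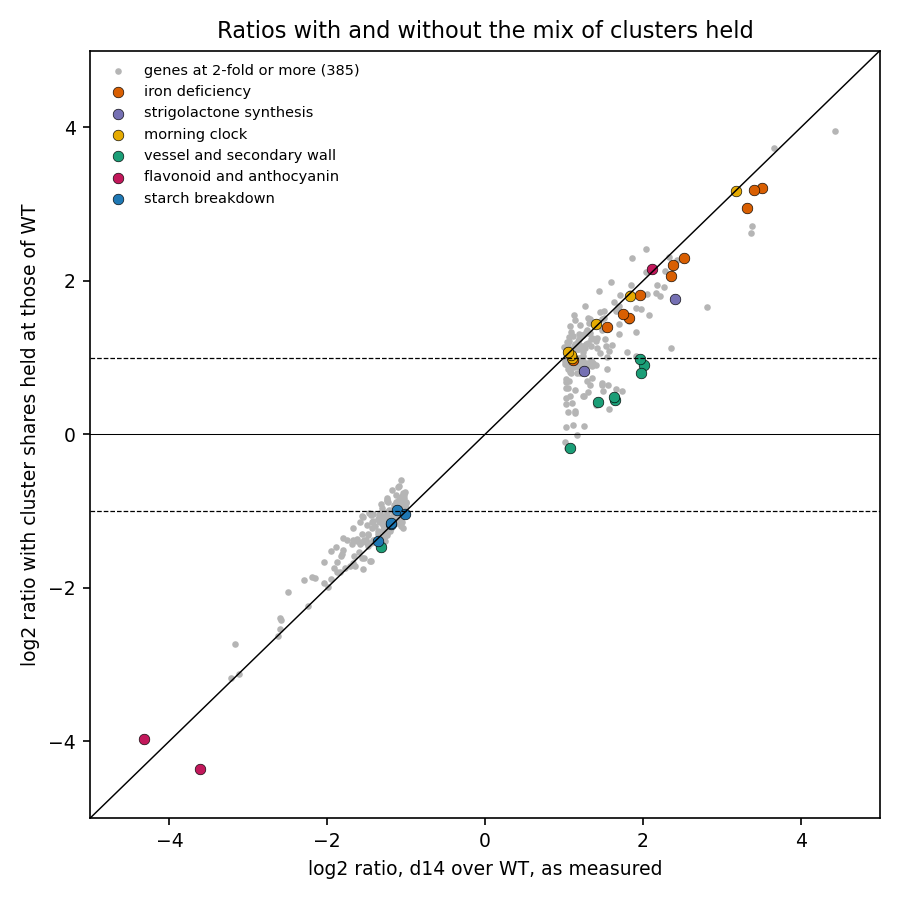
Log2 ratio of d14 over WT with cluster shares held at those of WT (vertical axis) against the plain log2 ratio (horizontal axis), for called genes. Points on the diagonal do not move when the mix of clusters is held, as for LHY and SR30, while vessel genes such as VND6 and CESA8 lie toward 0.

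Auxin genes were higher in part. Auxin induces the Aux/IAA repressors within minutes, and PIN, AUX1 and LAX proteins carry it between cells. IAA19, IAA14, IAA3 and IAA17, all Aux/IAA repressors, had ratios of 3.48 (2.09 to 6.07), 2.43 (1.88 to 3.17), 2.26 (1.90 to 2.7) and 2.23 (1.77 to 2.84). IAA3 and IAA17 are neighbours on chromosome 1. The importers LAX2 and LAX3 had ratios of 2.21 (1.91 to 2.56) and 2.11 (1.57 to 2.85), and PIN6, a carrier of the endomembranes, had 2.03 (1.49 to 2.80). None of 29 members was lower, and the lowest was the auxin-conjugating GH3.6 at 0.538. With cluster shares held, 5 members were 2-fold or more higher and 1 was 2-fold or more lower. LAX2 and PIN6 were then at 1.24 and 1.07, while IAA3 was at 2.32. IAMT1, which methylates auxin and is not in the group, had 5.90 CPM in WT against 61.5 in d14, a ratio of 10.4 (5.49 to 22.3) and a held ratio of 6.57.

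In the cytokinin group CKX6, a cytokinin oxidase, was higher at 2.03 (1.54 to 2.69) and IPT3, a cytokinin synthase, was lower at 0.425 (0.276 to 0.646), and the latter turned to 1.16 when barcodes with 500 or more counts were summed. The type-A response regulators, which cytokinin induces, were not called but lay above 1. ARR9 had 213 CPM in WT against 406 in d14, a ratio of 1.90 (1.68 to 2.16), ARR7 had a ratio of 1.80 (1.43 to 2.26), ARR8 of 1.76 (1.46 to 2.12), ARR5 of 1.75 (1.58 to 1.93) and ARR4 of 1.57 (1.40 to 1.77). Of cambium regulators 1 of 19 was called. It was PEAR2, a DOF factor of early phloem, with 13.6 CPM in WT against 40.9 in d14, a ratio of 3.01 (1.88 to 5.01). Clusters differed in direction for PEAR2. It had 5 and 28 counts in WT and d14 in cluster 1, and 3 and 22 in cluster 4. In cluster 5, led by genes that include AIL5 and SMXL4, it had 11 and 3, a ratio of 0.169 (0.0302 to 0.639).

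Other nutrient groups also held called genes, beside shares of 2.27% higher and 2.11% lower over all genes. For sulphur, 4 of 12 members were higher. These were the sulphate transporter SULTR2;2 at 2.85 (2.16 to 3.81), the deficiency-induced SDI1 and SDI2 at 2.80 (2.01 to 3.98) and 2.19 (1.65 to 2.95), and the reductase APR3 at 2.36 (1.73 to 3.26). For phosphate only PHO1;H1, an exporter of the PHO1 family, was called of 4 members, at 3.17 (2.04 to 5.08). For nitrate NRT1.5, a transporter that loads the xylem, was higher at 3.11 (2.11 to 4.72) and BT2, a nitrate-induced BTB protein, was lower at 0.472 (0.412 to 0.541), out of 14 members. The amino acid permeases AAP2 and AAP1 were higher at 4.85 (3.0 to 8.23) and 2.05 (1.61 to 2.64), of 4 members. UMAMIT11, an amino acid exporter named as one of the 20 highest ratios, had 44.8 CPM in WT against 225 in d14, a ratio of 5.02 (3.93 to 6.49). Metallothioneins, cysteine-rich metal-binding proteins, were lower for MT2B at 0.408 (0.294 to 0.560) and MT2A at 0.496 (0.398 to 0.615). MT2B turned to 1.29 when all barcodes were summed.

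Counts of stress and defence groups stand beside shares of 2.27% higher and 2.11% lower over all genes. The salicylic acid group had 4 of 10 members higher. PR2, a glucanase of defence, had 23.6 CPM in WT against 83.6 in d14, a ratio of 3.55 (2.50 to 5.14), and most of its counts lay in cluster 11, which it led. The factors WRKY70 and WRKY46 had ratios of 2.36 (1.60 to 3.54) and 2.06 (1.55 to 2.76), and EDS1, a hub of defence signalling, had 2.29 (1.86 to 2.84). Jasmonate genes of the list lay mostly below 1, with 3 of 15 lower and none higher. AOC3, a jasmonate synthesis gene outside the list, was called higher at 2.00 (1.47 to 2.76). VSP2, a storage protein that jasmonate induces, had 318 CPM in WT against 113 in d14, a ratio of 0.356 (0.304 to 0.415), and the repressors JAZ10 and JAZ7 had 0.421 (0.324 to 0.545) and 0.453 (0.314 to 0.647). Of these only VSP2 stayed past 2-fold when cluster shares were held, at 0.439, and JAZ10 and JAZ7 were at 0.563 and 0.510. In the abscisic acid and drought group 4 of 22 were higher and 1 lower. GOLS2, galactinol synthase, had 3.24 (2.64 to 4.01), the phosphatase HAB1 2.11 (1.73 to 2.58), the BURP protein RD22 2.10 (1.78 to 2.49) and the proline synthase P5CS1 2.06 (1.72 to 2.47), while the cold-induced KIN2 had 0.478 (0.396 to 0.577). Held cluster shares left 2 higher and none lower, and HAB1, P5CS1 and KIN2 were at 1.96, 1.99 and 0.513. RD22 was among the leading genes of cluster 7.

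Suberin genes were lower for 2 of 7 members, beside 2.11% over all genes. ASFT, the feruloyl transferase of suberin, had 65.4 CPM in WT against 18.7 in d14, a ratio of 0.286 (0.194 to 0.416), and CYP86A1, a fatty acid hydroxylase, had 0.421 (0.289 to 0.608). The 14 periderm markers, among which are suberin genes, summed to a ratio of 0.607 (0.542 to 0.680), with 2 of 5 testable markers lower and 1 of 14 at 0 in d14. With cluster shares held the median log2 ratio of the group was -0.29 in place of -0.67, and ASFT was at 0.393 and CYP86A1 at 0.548.

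The highest ratio of all belonged to AT1G05540, annotated as a hypothetical protein with a DUF295 domain. No count was found in WT and 408 were found in d14, which is at least 111-fold higher when 3 counts are set as the WT floor. From the 0 counts as observed, the lower end of the counting interval was 89.8. None of 684 WT nuclei held a count, which allows a share of nuclei with a count of up to 0.439% at this depth and sets no limit on nuclei that express the gene. A count was found in 200 of 822 thinned d14 nuclei, 24.3% (21.4 to 27.4%), or 33.8% unthinned. In d14 the thinned nuclei with a count were found in all 15 clusters, at 12.0 to 31.3%. Free RNA held 0 counts in WT and 259 in d14. In the 4-week droplet library the gene had 0.434 CPM. Of its neighbours, UGT75B2 on one side and AT1G05550 on the other had 0 counts in WT and 0 and 1 in d14. AT1G05510 had 0 and 9, and CALS1, a callose synthase, had 407 and 472, a ratio of 0.946 (0.826 to 1.08).

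Other genes of high ratio had no group. AT1G66020, annotated as a terpenoid cyclase, had 4 counts in WT against 106 in d14, a ratio of 21.6 (8.20 to 80.8), and lay mainly in clusters 8 and 10. AT3G57010, annotated as a phosphotriesterase, had 11 counts in WT against 170 in d14, a ratio of 12.6 (6.87 to 25.7). CEL3, a cellulase, had 11 counts in WT against 95 in d14, a ratio of 7.04 (3.76 to 14.6) and a held ratio of 3.17. HK1, a histidine kinase known as an osmosensor, had 47.8 CPM in WT against 198 in d14, a ratio of 4.15 (3.26 to 5.33), and was above 1 in all 9 clusters with 20 or more counts. The misc_RNA AT3G00740, the sugar transporter family member AT5G55950, the hydrolase family member AT1G32190 and the MYB factor MYB43 had ratios of 10.3, 5.11, 4.80 and 4.65.

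Genes of low ratio without a group included AT1G14240, annotated as a nucleoside phosphatase, with 189.8 CPM in WT against 21.2 in d14, a ratio of 0.111 (0.0794 to 0.153). DR4, a drought-repressed gene, had 297 CPM in WT against 34.1 in d14, a ratio of 0.115 (0.0885 to 0.148), and the beta-glucosidase BGLU47 had 345 CPM in WT against 55.8 in d14, a ratio of 0.162 (0.131 to 0.198). FLS2, the receptor of bacterial flagellin, had a ratio of 0.253 (0.168 to 0.372). The NAC family gene NAC074, the bHLH family gene AT1G22490, the hydrolase family gene AT4G36610 and the peroxidase family gene AT1G68850 lay between 0.165 and 0.204. AT4G30650, LSH1, BGLU1, AT2G15880, AT5G14920 and ALDH5F1 completed the 20 lowest, between 0.212 and 0.265. TUB5, a beta-tubulin, had 0.224 (0.142 to 0.343), and its neighbour on chromosome 1, the ferredoxin reductase FNR2, had 0.357 (0.305 to 0.417). In all, 12 pairs of called genes were direct neighbours, 11 of them with the same direction, and reads of overlapping neighbours may not be separated.

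In the remaining groups at most 1 gene per direction was called. Higher were PIP2;5, an aquaporin, at 2.38 (1.60 to 3.60), EXPA15, an expansin, at 2.17 (1.71 to 2.77), and FMOGS-OX1, an enzyme of aliphatic glucosinolates, at 2.25 (1.92 to 2.64). Lower were ACO4, an enzyme of ethylene synthesis, at 0.357 (0.233 to 0.537), the zinc exporter HMA2 at 0.461 (0.310 to 0.679), the hexose carrier STP13 at 0.467 (0.366 to 0.594), the indole glucosinolate methyltransferase IGMT1 at 0.408 (0.287 to 0.572) and TOPII, a topoisomerase of dividing cells, at 0.444 (0.299 to 0.651). For HMA2 clusters differed in direction, with 28 and 5 counts in WT and d14 in cluster 8 and 24 and 6 in cluster 10. In cluster 4 it had 1 and 19, a ratio of 22.3 (3.55 to 928). No member was called among 7 brassinosteroid, 10 cuticle and wax, 4 gibberellin, 3 heat shock, 5 flowering time, 12 touch and wounding and 4 phloem identity genes. Among 76 published auxin-induced genes of seedlings 11 were higher and 1 lower, and among 27 cytokinin-induced genes 3 were higher and none lower. Among 295 methyl jasmonate-induced genes 5 were higher and 17 lower, and among 257 abscisic acid-induced genes 12 and 14. As shares higher and lower, the auxin list had 14.5% and 1.32% and the cytokinin list 11.1% and 0%. The methyl jasmonate list had 1.69% and 5.76%, and the abscisic acid list 4.67% and 5.45%. Over all genes the shares were 2.27% and 2.11%. Beyond the groups for which this was given, held ratios ended the calls of LNK3, CKX6 and PIP2;5, at 1.99, 1.91 and 1.41, and of PWD, LHCB1.3, BCAT-2, STP13 and BT2, at 0.503, 0.520, 0.529, 0.549 and 0.564.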

How the data were processed

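Single-nucleus libraries were made with a droplet-based 3′ kit. The authors used Cell Ranger 6.0.1 and TAIR 10, per the submitters' processing notes, counted intronic reads and left out organelle genomes, and deposited raw UMI counts per gene and barcode with no normalization. Barcodes with more than 1500 and fewer than 15000 counts were summed per library. Doublets were neither called nor removed. Ratios of CPM carry 95% exact conditional binomial (Clopper-Pearson) intervals, a WT count of 0 was replaced by a floor of 3 counts, and no test was run with 1 library per group. Joint clusters were made with Seurat 5.3.0 (15 components, resolution 1.2) in R 4.3.3, and edgeR 4.0.16 gave TMM factors for an alternative on the same counts. Sums used Python 3.11.15, numpy 2.4.6, scipy 1.17.1 and pandas 2.3.3. For shares of nuclei with a count, each nucleus was thinned to the lowest total allowed. The script was tested on simulated data. Symbols and promoters came from RefSeq TAIR10.1.

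The members and gene lists were chosen with earlier results of these data known. Genes named were the 20 highest and 20 lowest ratios, called members of each list (at most 8 per list), all strigolactone synthesis genes, D14, MAX2, SMXL6, SMXL7 and SMXL8. Any other gene was chosen after its values were seen. The plate-based libraries were not used here, and the 4-week droplet library gave levels only. Alternatives were other limits on barcodes and genes, thinned counts, TMM and median-of-ratios scaling, held cluster shares and a stricter call.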

Additional observations from a re-analysis of the deposited data

How the results depend on the processing

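No paired analysis was possible because each genotype had 1 library, and for the same reason no library could be left out. The 200 higher and 186 lower genes became 130 and 136 with a minimum of 2500 counts per barcode, 252 and 282 with 500, and 353 and 485 with all barcodes. They became 118 and 113 with thinned nuclei. With a gene minimum of 20, 50 and 200 counts they became 740 and 710, 375 and 355, and 96 and 93, and 69 and 62 genes had an interval past 2-fold. With a minimum of 1000 counts per barcode they were 230 and 237, with TMM or median-of-ratios scaling 197 and 191, and with cluster shares held 143 and 156. Many genes changed between lists. Of the 200 higher and 186 lower genes, 108 and 116 were also called with a minimum of 500 counts, 131 and 138 with 1000, 76 and 73 with 2500, 84 and 105 with all barcodes, 98 and 91 with thinned nuclei, and 121 and 142 with cluster shares held. Fewer or more genes were tested under the gene minimums by construction, and for the other settings the cause was not tested. IPT3 turned from below 1 to 1.16 with a minimum of 500 counts and to 1.30 with all barcodes, MT2B to 1.29 with all barcodes, and VND6 from above 1 to 0.886 with cluster shares held. An alternative without barcodes shared by the libraries was not run, since the barcode names of the d14 matrix could not be matched to its columns.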
